A study of Mus musculus with 6 samples.

Results

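The 10 genes described here encode the receptors that bind the constant part of immunoglobulin G (Fcgr1, Fcgr2b, Fcgr3 and Fcgr4), the signalling adaptors Fcer1g and Tyrobp, and 4 general markers of macrophages (Csf1r, Cx3cr1, Adgre1 and Cd68). They were taken by symbol from the platform's annotation, and each was found, with 18 probe sets in all, among 18193 genes that had a probe set of their own. Transcripts were measured in heart ventricle tissue of 3 Trex1 KO mice and 3 Trex1 WT mice, 1 array per mouse. All 6 animals were Rag2 knockouts as well, so the Trex1 WT animals were not wild type at Rag2, and they formed 3 littermate pairs (A, B and C), each with 1 Trex1 KO and 1 Trex1 WT mouse. The labels give no age, strain or sex, and do not say how either knockout allele was made. Values are the authors' MAS5 signals, a summarised brightness for each probe set on a linear scale, and the highest signal of any bacterial control, which has no counterpart in the tissue, was 69.8. Each animal was hybridised once, so the p-values below rest on the spread between these animals. Those of the fit paired by litter rest on the spread of the differences between littermates.

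Macrophages bind antibody-coated particles through the Fc gamma receptors. Fcgr1, Fcgr3 and Fcgr4 activate the cell and depend on Fcer1g, a small adaptor whose tail carries the tyrosine motif called ITAM, whereas Fcgr2b carries an inhibitory tyrosine motif, ITIM, in its own tail. Tyrobp, also named DAP12, is a second ITAM adaptor that serves other receptors of myeloid and natural killer cells. The heart holds resident macrophages between its muscle cells, which depend on signals through Csf1r and can be joined by cells derived from blood monocytes. Rag2 loss blocks the formation of mature T and B cells, and with B cells the source of immunoglobulin. Fcgr1 and Fcgr4 are known to be inducible by interferon gamma in macrophages.

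RefSeq promoter windows of assembly GRCm38.p6, from 250 bases before to 50 bases after the annotated start, were used for 7 of the 10 genes. The first listed window of each was taken, and Csf1r, Tyrobp and Adgre1 were not searched. The 7 windows were searched on both strands for the interferon response element, a pair of GAAA runs a fixed distance apart. They were also searched for GAGGAA, the core bound by the myeloid factor PU.1. Of 32851 promoter windows of the same length, 3.44% held the first motif and 28.3% the second. The first was found in 1 of the 7 genes (Fcgr4) and the second in 4 (Fcgr1, Fcgr3, Fcgr4 and Cd68). The windows of Fcgr1 and Fcgr4, which hold these matches, and that of Fcgr2b, which holds neither motif, are shown 5′ to 3′ with matches in capitals. In Fcgr1 (chr3:96293920-96294219, minus strand) TTCCTC, the GAGGAA core on the other strand, begins at -55 from the start. In Fcgr4 (chr1:171018676-171018975, plus strand) GAAAAGGAAA begins at -73 and TTCCTC at -22, and the window of Fcgr2b is chr1:170976022-170976321 on the minus strand. None of the matches shown overlaps another. A match is a string of letters and does not show that a factor binds there.
Fcgr1: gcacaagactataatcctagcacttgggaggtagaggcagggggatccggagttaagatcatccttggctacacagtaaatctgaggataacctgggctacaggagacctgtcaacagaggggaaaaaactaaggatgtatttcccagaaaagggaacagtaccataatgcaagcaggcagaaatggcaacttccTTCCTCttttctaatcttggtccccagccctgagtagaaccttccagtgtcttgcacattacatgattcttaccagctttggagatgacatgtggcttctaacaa
Fcgr4: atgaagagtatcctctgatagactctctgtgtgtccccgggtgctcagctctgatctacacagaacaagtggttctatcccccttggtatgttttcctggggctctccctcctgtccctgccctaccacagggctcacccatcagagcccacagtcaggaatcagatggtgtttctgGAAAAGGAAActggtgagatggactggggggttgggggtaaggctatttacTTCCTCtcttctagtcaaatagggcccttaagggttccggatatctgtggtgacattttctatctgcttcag
Fcgr2b: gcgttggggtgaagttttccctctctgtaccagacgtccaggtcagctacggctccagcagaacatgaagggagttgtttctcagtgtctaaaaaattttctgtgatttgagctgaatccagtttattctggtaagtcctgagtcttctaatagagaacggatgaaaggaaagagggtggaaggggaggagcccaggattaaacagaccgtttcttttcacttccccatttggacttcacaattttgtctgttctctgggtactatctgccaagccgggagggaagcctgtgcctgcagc

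Among the 10 genes, 0 passed the test in either direction, while Fcgr1 stood highest. For each gene the brightest probe set stood for it, and all 10 passed the filter on low signals that left 12811 genes tested. The fit in limma on log2(signal + 16), with Benjamini-Hochberg (BH) adjustment over 27022 probe sets and a threshold of 0.05, gave 0 members higher and 0 lower, against 0.312% of tested genes higher and 0.039% lower. At an unadjusted p under 0.05 the limma fit gave 1 member higher, Fcgr1, and 0 lower, against 3.03% and 2.26% of tested genes. A paired fit, in which limma took the littermate pairs as a block, also gave 0 adjusted calls in both directions, against 0.531% of tested genes higher and 0.0937% lower. In that fit 3 members (Fcgr1, Tyrobp and Adgre1) were higher at an unadjusted p under 0.05, against 4.41% of tested genes. The median log2 difference of the 10 genes, Trex1 KO minus Trex1 WT, was 0.26, against -0.02 over all tested genes, and 8 of the 10 lay above 0, against 44.5% of tested genes. Within pairs A, B and C the median was 0.19, 0.24 and 0.24. With single arrays left out it ranged from 0.11 without Trex1 KO B to 0.42 without Trex1 WT B, and was 0.16 without Trex1 WT A. The smallest difference among the 45 genes that passed was 0.79, and the standard errors of the 10 genes ran from 0.16 to 0.28. In bulk tissue, fewer cells of a type and less RNA per cell cannot be told apart.

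**Figure D1:**
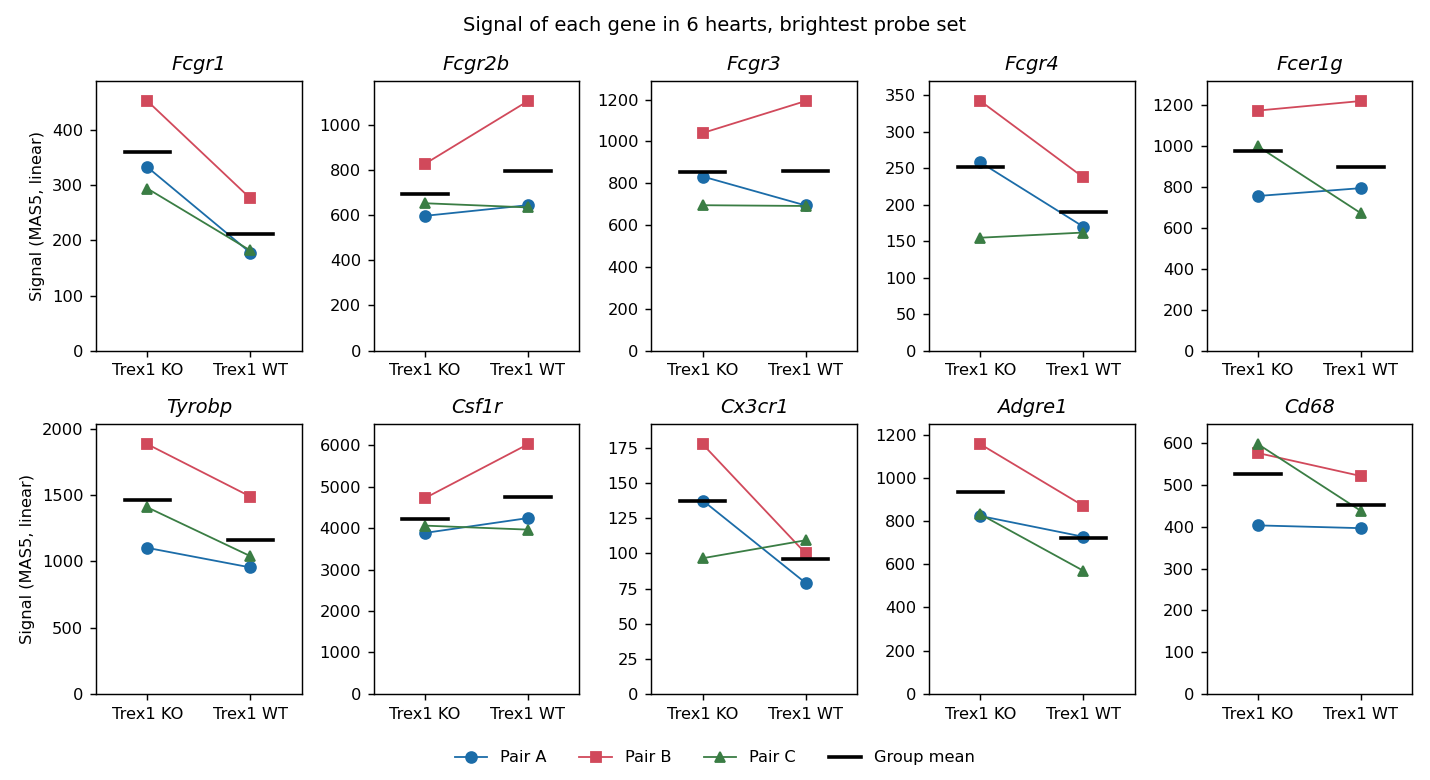
MAS5 signal (linear, y axis from 0, scaled for each gene) of the brightest probe set of each of the 10 genes in Trex1 KO and Trex1 WT hearts. Points are single arrays, lines join littermates and black bars are group means; the Fcgr1 signals of the 3 Trex1 KO hearts, 294 to 453, lie above those of the 3 Trex1 WT hearts, 178 to 276.

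Fcgr1 encodes the high-affinity receptor for immunoglobulin G. Its signal was 333, 453 and 294 in Trex1 KO hearts A, B and C, against 178, 276 and 182 in Trex1 WT hearts A, B and C. Each knockout lay above every wild-type heart, a pattern that 1 of the 10 genes showed, against 5.03% of tested genes; 0 of the 10 lay below throughout, against 5.83%. Its log2 difference was 0.73 (SE 0.23, 95% interval 0.22 to 1.23), or 1.65-fold, with an unadjusted p of 0.00965 and an adjusted p of 0.684 in limma. The littermates of each pair differed by similar amounts, 0.85 in pair A, 0.68 in pair B and 0.65 in pair C. In the paired fit the limma adjusted p was 0.174. Of all tested genes, 1.65% had a difference as large or larger in that direction. The dimmer Fcgr1 probe set gave 140, 203 and 215 in Trex1 KO hearts A, B and C and 131, 170 and 145 in Trex1 WT hearts A, B and C, groups that overlapped. Its log2 difference was 0.28 (SE 0.23, limma BH-adjusted p = 0.955), smaller than that of the brighter probe set but of the same sign in each pair.

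Fcgr4, an activating receptor for several immunoglobulin G subclasses, had signals of 258, 342 and 155 in Trex1 KO hearts A, B and C, against 170, 237 and 162 in Trex1 WT hearts A, B and C. The knockout was higher in pairs A and B (log2 differences 0.56 and 0.50) and slightly lower in pair C (-0.06), and the groups overlapped. The log2 difference was 0.33 (95% interval -0.29 to 0.96, limma BH-adjusted p = 0.955). Leaving out Trex1 KO B gave 0.09, and leaving out Trex1 KO C gave 0.62.

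Fcgr3, the low-affinity activating receptor that natural killer cells also carry, had signals of 832, 1040 and 695 in Trex1 KO hearts A, B and C, against 694, 1193 and 692 in Trex1 WT hearts A, B and C. Pair B was highest in both groups, and the littermates of pair C were almost equal. Its log2 difference was 0.02 (95% interval -0.47 to 0.52, limma BH-adjusted p = 0.996), and its sign turned when Trex1 KO B, Trex1 WT A or Trex1 WT C was left out.

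Fcgr2b, the inhibitory receptor, had signals of 596, 827 and 652 in Trex1 KO hearts A, B and C, against 644, 1104 and 634 in Trex1 WT hearts A, B and C. Trex1 WT B stood above the other 5 arrays. The log2 difference was -0.16 (95% interval -0.64 to 0.33, limma BH-adjusted p = 0.970). Without Trex1 WT B it was 0.10. Its 3 dimmer tested probe sets gave log2 differences of -0.22, -0.15 and -0.04, each with a limma adjusted p of at least 0.956. The same pair could differ in sign between them. In pair A the 4 tested probe sets gave -0.11, 0.36, -0.41 and 0.27. The fifth probe set did not pass the filter, with signals of at most 34.0. Fcgr2b and Fcgr3 are closely related in sequence, and whether their probe sets share transcripts was not tested.

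Fcer1g, on which the activating Fc receptors depend, had signals of 755, 1172 and 997 in Trex1 KO hearts A, B and C, against 793, 1218 and 671 in Trex1 WT hearts A, B and C. Only in pair C was the knockout higher (0.56), and the differences in pairs A and B were -0.07 and -0.06. The log2 difference over all was 0.15 (95% interval -0.36 to 0.65, limma BH-adjusted p = 0.971). It was -0.06 without both animals of pair C, and between -0.04 (without Trex1 WT C) and 0.39 (without Trex1 WT B) with single arrays left out. Tyrobp had signals of 1102, 1884 and 1408 in Trex1 KO hearts A, B and C, against 955, 1489 and 1040 in Trex1 WT hearts A, B and C. The knockout was higher in each pair, by 0.20, 0.34 and 0.43, but Trex1 WT B lay above 2 of the 3 knockouts. Its log2 difference was 0.32 (95% interval -0.15 to 0.80, limma BH-adjusted p = 0.955). Leaving out Trex1 KO B gave 0.13 and leaving out Trex1 WT A gave 0.20, whereas without Trex1 KO A or Trex1 WT B it was 0.51. In the paired fit its unadjusted p was 0.00979 and its adjusted p 0.421 in limma.

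Of the 4 general macrophage markers, Adgre1 and Cd68 were higher in the knockout of each pair and Csf1r was not. Adgre1, an adhesion receptor of mouse macrophages, had signals of 823, 1156 and 831 in Trex1 KO hearts A, B and C, against 727, 870 and 570 in Trex1 WT hearts A, B and C. The groups overlapped through Trex1 WT B. The log2 difference was 0.37 (95% interval -0.04 to 0.78), with a limma adjusted p of 0.951, or 0.438 in the paired fit. Leaving out either Trex1 KO B or Trex1 WT C gave a difference of 0.21. Cd68, a lysosomal membrane protein, had signals of 403, 577 and 598 in Trex1 KO hearts A, B and C, against 397, 522 and 438 in Trex1 WT hearts A, B and C. Its difference in pair A was 0.02 and in pair C 0.44, and the log2 difference over all was 0.20 (95% interval -0.21 to 0.61, limma BH-adjusted p = 0.956). It was 0.10 without Trex1 KO C, 0.37 without Trex1 KO A and 0.08 without both animals of pair C. A higher knockout in all 3 pairs was seen for 4 of the 10 genes (Fcgr1, Tyrobp, Adgre1 and Cd68), against 13.1% of tested genes, and a lower one for 0, against 17.9%.

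Csf1r, the receptor for the macrophage growth factors Csf1 and Il34, had signals of 3886, 4728 and 4062 in Trex1 KO hearts A, B and C, against 4245, 6028 and 3966 in Trex1 WT hearts A, B and C. Trex1 WT B was again the highest array. The log2 difference was -0.15 (95% interval -0.50 to 0.20, limma BH-adjusted p = 0.961). Without Trex1 WT B it was 0.04. The dimmer probe sets gave -0.31 and -0.16 (limma BH-adjusted p = 0.926 and 0.962). Cx3cr1, the receptor for fractalkine, was dim, with signals of 138, 178 and 96.6 in Trex1 KO hearts A, B and C, against 79.0, 100 and 109 in Trex1 WT hearts A, B and C. The knockout was higher in pairs A and B and lower in pair C, and the log2 difference was 0.43 (95% interval -0.19 to 1.04, limma BH-adjusted p = 0.955). Leaving out Trex1 KO B gave 0.24, and leaving out both animals of pair C gave 0.72. Its other probe set did not pass the filter, with signals of at most 57.4. The 95% intervals of Fcgr1 and Cx3cr1 reached a 2-fold difference, and those of the other 8 genes did not. These intervals, like the others given here, come from the fit without the littermate block. They are those of single genes and are not adjusted for the number of genes.

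**Figure D2:**
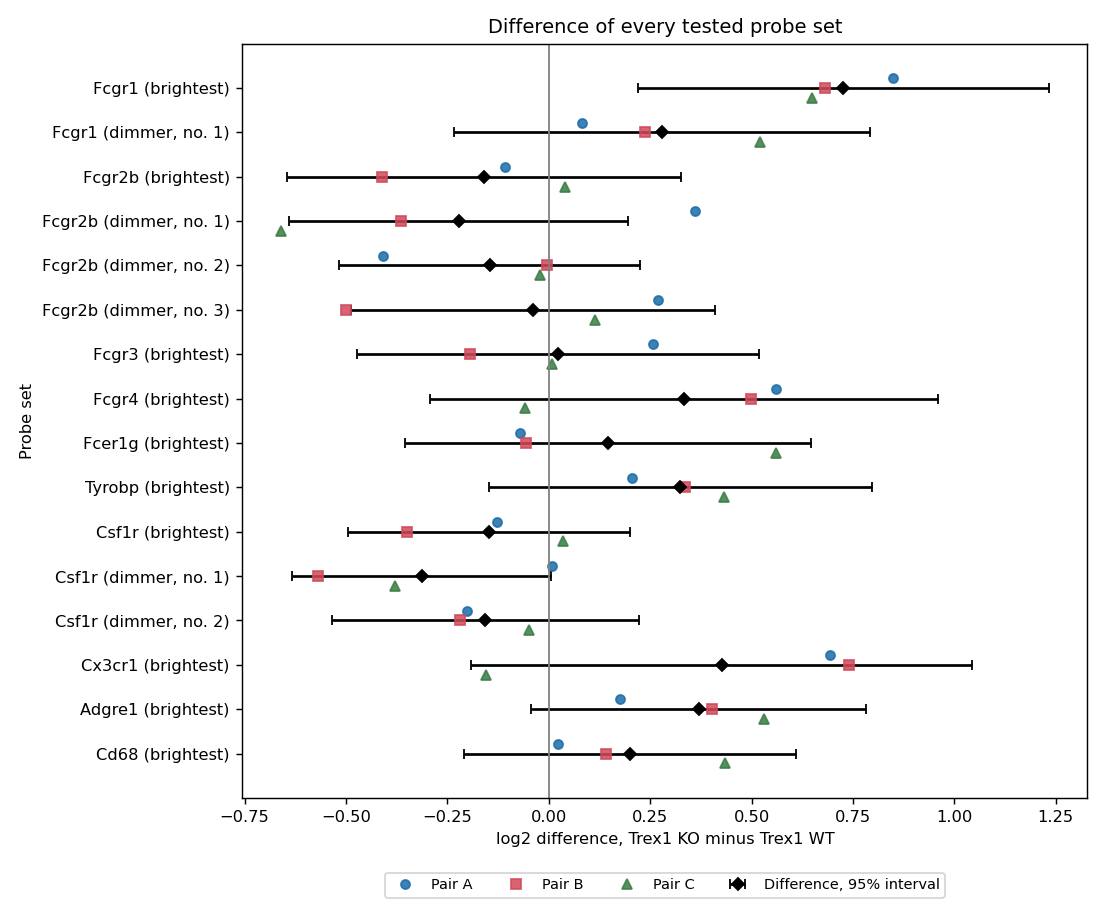
Log2 difference (x axis, Trex1 KO minus Trex1 WT) of the 16 tested probe sets of the 10 genes, 1 row per probe set. Black diamonds with bars are the limma difference and its 95% interval in the fit without the littermate block. Coloured points are the differences within pairs A, B and C. In that fit the interval of the brightest Fcgr1 probe set, 0.22 to 1.23, is the only 1 that lies wholly above 0. Intervals of the paired fit, in which Tyrobp and Adgre1 also had an unadjusted p under 0.05 in limma, are not shown.

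Pair B stood apart for most of the 10 genes, and the cause was not tested. Pair B had the highest signal both among the Trex1 KO and among the Trex1 WT arrays for 8 of the 10 genes, against 16.3% of tested genes. The exceptions were Cx3cr1, highest in Trex1 WT C among the wild types, and Cd68, highest in Trex1 KO C among the knockouts. Measured as the mean log2 deviation from the 6-array mean of each gene, the 10 genes lay at -0.04, 0.42 and -0.04 in Trex1 KO hearts A, B and C and at -0.28, 0.24 and -0.29 in Trex1 WT hearts A, B and C. Trex1 WT B thus lay above the knockouts of the other pairs. Within the Trex1 KO group the highest signal was between 1.22 times (Csf1r) and 2.21 times (Fcgr4) the lowest, and within the Trex1 WT group between 1.31 times (Cd68) and 1.82 times (Fcer1g). Among 22 other general macrophage genes, such as Ptprc, Lyz2 and C1qa, 19 were likewise highest in pair B in both groups.

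**Figure D3:**
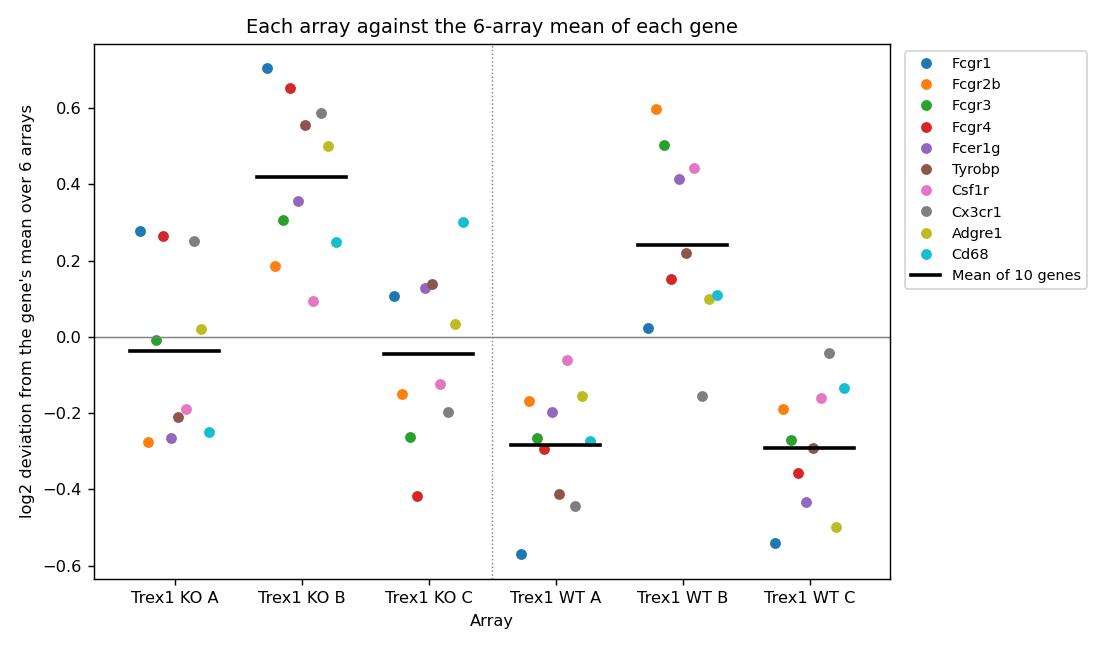
Log2 deviation of each of the 10 genes (coloured points) from its own mean over the 6 arrays, by array, with black bars for the mean of the 10. The arrays of pair B, at means of 0.42 in Trex1 KO and 0.24 in Trex1 WT, lie above all other arrays, which range from -0.29 to -0.04.

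The 10 genes varied together across arrays. As a description over these 6 arrays, which share litters, 44 of 45 pairs of members had a positive Pearson correlation, with a median of 0.64, whereas the median correlation of a member with the other tested genes was -0.01. Fcgr2b and Csf1r were the closest pair (0.99), and Csf1r and Cx3cr1 the farthest apart (-0.01). Outside the 10, the genes with the pattern most like that of Fcgr1 were Atp8b4, Trim12a, Mndal, Ccr1 and Ms4a6b, with correlations from 0.988 to 0.996. Their log2 differences were 0.64, 0.67, 0.87, 0.37 and 1.18, and none of these 5 passed in limma (adjusted p at least 0.210). Those most like Csf1r were Cers5, Dkc1, Pim3, Ruvbl1 and Park7, with correlations from 0.986 to 0.993 and log2 differences from -0.15 to -0.03. These genes were picked for their likeness, so the correlations carry no test.

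Genes around the Fc receptors were described by lists of the pathway. Of 14 tested kinases, phosphatases and adaptors of ITAM and ITIM signalling, 0 passed in either direction, against 0.312% of tested genes higher and 0.039% lower. At an unadjusted p under 0.05 in limma 0 passed too, against 3.03% and 2.26%. The knockouts lay wholly above the wild types for 1 of the 14 and wholly below for 2, against 5.03% and 5.83% of tested genes. The median log2 difference was 0.03. Cbl, a ubiquitin ligase that restrains Syk signalling, had the smallest p, with 616 ± 41.7 in Trex1 KO and 775 ± 107 in Trex1 WT (SD, n = 3 each; log2 difference -0.32, limma BH-adjusted p = 0.917); its dimmer tested probe set gave 0.46. The next list held receptors assigned to Tyrobp or Fcer1g, and also Clec7a and the Mac-1 integrin chains Itgam and Itgb2. Of its 10 tested genes 0 passed. At an unadjusted p under 0.05 in limma 4 were higher, against 3.03% of tested genes. Itgb2 was among the 4, named after its value was seen. The median of the 10 was 0.57, and 9 lay above 0, against 44.5% of tested genes. Cd300ld, an activating receptor of myeloid cells, had signals of 305, 357 and 347 in Trex1 KO hearts A, B and C, against 185, 263 and 201 in Trex1 WT hearts A, B and C. The log2 difference was 0.61 (SE 0.19, limma BH-adjusted p = 0.648), and the groups did not overlap. In this list the knockouts lay wholly above the wild types for 3 of the 10 genes and wholly below for 0, against 5.03% and 5.83% of tested genes. Of 5 tested other Fc receptors and inhibitory receptors 0 passed, and the median was 0.07. At an unadjusted p under 0.05 in limma 0 passed too, against 3.03% of tested genes higher and 2.26% lower. Trim21, a cytosolic Fc receptor, had a log2 difference of 0.29 (limma BH-adjusted p = 0.955). Of the list's 7 untested members, the immunoglobulin E receptor chains Fcer1a and Ms4a2 were among those below the filter.

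Of 11 tested genes of the CSF1 and CX3CL1 axes 0 passed, and the median was 0.23. At an unadjusted p under 0.05 in limma 1 was higher and 1 lower, against 3.03% and 2.26% of tested genes. Runx1, a transcription factor of blood cells, had signals of 194 ± 38.9 in Trex1 KO and 288 ± 23.0 in Trex1 WT (SD, n = 3 each; log2 difference -0.55, limma BH-adjusted p = 0.781). Its other tested probe sets gave -0.08 and 0.09. Of 22 tested other general macrophage genes 0 passed. At an unadjusted p under 0.05 in limma 3 were higher and 0 lower, against 3.03% and 2.26% of tested genes. The median of the 22 was 0.31, close to that of the 10 genes, and 19 lay above 0, against 44.5% of tested genes. Ms4a7, a membrane protein of macrophages, had signals of 615, 987 and 614 in Trex1 KO hearts A, B and C, against 377, 375 and 296 in Trex1 WT hearts A, B and C. Its log2 difference was 1.02 (SE 0.20, limma BH-adjusted p = 0.134, or 0.0321 in the paired fit), and its groups did not overlap. The knockouts lay wholly above the wild types for 3 of the 22 genes and wholly below for 0, against 5.03% and 5.83% of tested genes. In the paired fit 1 of the 22 passed, Ms4a7, against 0.531% of tested genes higher.

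Of 9 tested genes of resident and alternatively activated macrophages, 2 lay above 0 and 7 below, against 44.5% of tested genes above 0. In the test 0 of the 9 rose and 1 fell, against 0.312% and 0.039% of tested genes. It was the secreted protein Retnla, with 618 ± 310 in Trex1 KO and 2007 ± 399 in Trex1 WT (SD, n = 3 each; log2 difference -1.76, limma BH-adjusted p = 0.0459). The median of the list was -0.14. At an unadjusted p under 0.05 in limma 1 was higher and 2 lower, against 3.03% and 2.26% of tested genes. In the paired fit 0 rose and 2 fell, against 0.531% and 0.0937% of tested genes. The second was the haemoglobin scavenger receptor Cd163 (log2 difference -1.38, limma BH-adjusted p = 0.00855 in that fit, against 0.0504 without the block), named after its value was seen. Of 21 tested interferon-stimulated genes 12 rose and 0 fell, against 0.312% and 0.039% of tested genes, with a median of 1.58. Among them were Usp18 (log2 difference 3.34, limma BH-adjusted p = 6.54e-06) and Ifit1 (2.67, limma BH-adjusted p = 0.000354). Oas3 passed too (limma BH-adjusted p = 0.00109), with signals of 244, 335 and 267 in Trex1 KO hearts A, B and C, against 29.6, 27.6 and 24.4 in Trex1 WT hearts A, B and C. The Trex1 WT signals of Oas3 all lay below the highest bacterial control, so the size of its difference is not given. Bst2, an interferon-inducible membrane protein listed with the dendritic cell markers, showed a log2 difference of 1.17 (limma BH-adjusted p = 0.0629, or 0.0089 in the paired fit). It ran against most of that list, whose median was -0.13 with 3 of 5 tested genes below 0 (Flt3 -0.51, Batf3 -0.41 and Zbtb46 -0.13, named after their values were seen). In the list 0 passed without the block, against 0.312% of tested genes higher and 0.039% lower. At an unadjusted p under 0.05 in limma 1 was higher, Bst2 itself, and 0 lower, against 3.03% and 2.26% of tested genes.

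**Figure D4:**
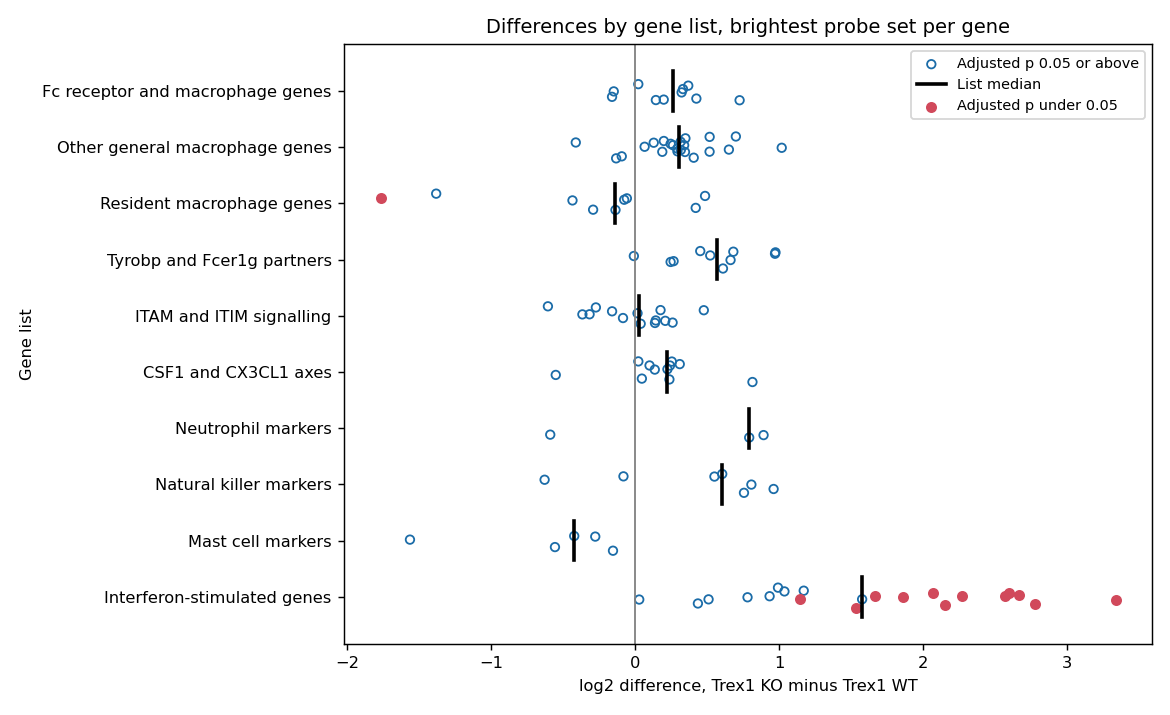
Log2 difference (x axis, Trex1 KO minus Trex1 WT) of each tested gene by list, with filled points for genes past the adjusted threshold of 0.05 and black bars for list medians. The 10 genes (top row, median 0.26) hold no filled point, the resident macrophage list holds 1 and the interferon-stimulated list 12.

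Other cells carry some of these receptors too, and their markers were compared for that reason. Of the neutrophil markers 3 of 8 with a probe set passed the filter and 0 passed the test. At an unadjusted p under 0.05 in limma 0 passed too, against 3.03% of tested genes higher and 2.26% lower. The summed signal of the 8 ran from 534 to 1673 in Trex1 KO and from 614 to 779 in Trex1 WT, and the median log2 difference of the 3 was 0.79, with 2 above 0 and 1 below (Ngp -0.59, named after its value was seen). S100a9 differed by 0.89 (limma BH-adjusted p = 0.927), but its knockout was lower in pair A (-0.36). Of the natural killer markers 7 of 9 passed the filter and 0 the test. At an unadjusted p under 0.05 in limma 1 was higher, against 3.03% of tested genes. The summed signal of the 9 ran from 946 to 2487 in Trex1 KO, highest in pair B, and from 770 to 1103 in Trex1 WT. The median of the 7 was 0.61, with 5 above 0 and 2 below (Cd160 -0.63 and Ncr1 -0.08, named after their values were seen). The granzyme Gzma had the smallest p and the highest log2 difference, 0.96 (limma BH-adjusted p = 0.917). Of the mast cell markers 5 of 7 passed the filter and 0 the test. At an unadjusted p under 0.05 in limma 1 was lower, against 2.26% of tested genes. The summed signal of the 7 ran from 698 to 913 in Trex1 KO and from 896 to 1258 in Trex1 WT. All 5 tested genes lay below 0, as did 7115 of all 12811 tested genes, and their median was -0.42. The tryptase Tpsb2 had signals of 13.3, 35.7 and 29.1 in Trex1 KO hearts A, B and C, against 91.4, 132 and 94.6 in Trex1 WT hearts A, B and C (limma BH-adjusted p = 0.270). Its Trex1 KO signals all lay below the highest bacterial control, so no size is given, and its other probe set averaged 31.6 in Trex1 KO and 30.0 in Trex1 WT. On every array, 3 of the 8 neutrophil, 2 of the 9 natural killer and 0 of the 7 mast cell markers lay at or below the highest bacterial control. The part of these cells in the values of Fcgr1, Fcgr3, Fcgr4, Fcer1g and Tyrobp was not tested.

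The Trex1 probe set, which the annotation assigns to Atrip and Trex1 together, gave 9.45, 20.6 and 34.2 in Trex1 KO hearts A, B and C, against 714, 340 and 887 in Trex1 WT hearts A, B and C. This is the direction the labels give, although whether the probes lie in the deleted part is not known. Of 10 cardiomyocyte markers, all passed the filter and 0 the test, with a median of -0.01. At an unadjusted p under 0.05 in limma 0 passed too, against 3.03% of tested genes higher and 2.26% lower. Nppb, a natriuretic peptide, had the smallest p (log2 difference 0.17, limma BH-adjusted p = 0.959). Of 9 T and B cell markers with a probe set 1 passed the filter, Cd8a (log2 difference -0.29, limma BH-adjusted p = 0.974). The other Cd8a probe sets did not pass the filter, with group means from 16.1 to 63.9. Among 3 tested atrial markers 0 passed; Nppa, which stressed ventricles express too, was higher at an unadjusted p under 0.05 in limma (log2 difference 0.996, adjusted p = 0.126, or 0.00886 in the paired fit). The Actb 3′ to 5′ ratio, a measure of RNA quality in which higher values go with shorter fragments, was 1.66, 1.60 and 1.68 in Trex1 KO hearts A, B and C and 2.09, 2.29 and 1.80 in Trex1 WT hearts A, B and C. The groups did not overlap (two-sided exact permutation p = 0.1, the lowest value possible with 3 arrays a group). With this ratio as a covariate the median difference of the 10 genes was 0.54, that of Fcgr1 was 1.05 with a limma adjusted p of 0.796, and those of Adgre1, Fcer1g, Tyrobp, Fcgr4, Fcgr3 and Cd68 were 0.79, 0.76, 0.59, 0.56, 0.52 and 0.34. Fcgr2b (0.38) and Csf1r (0.29) turned above 0, and Cx3cr1 moved the other way, to 0.15 with the covariate, against 0.43 without it. The standard errors were larger with the covariate than without it. They were 0.41 against 0.23 for Fcgr1, 0.35 against 0.22 for Fcgr2b, 0.24 against 0.16 for Csf1r and 0.51 against 0.28 for Cx3cr1. The ratio differed between the groups on all arrays, so this fit cannot separate it cleanly from genotype. The part of RNA quality in these differences was not tested.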

How the data were processed

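Biotin-labelled RNA of heart ventricles was measured on 1-colour arrays, per the labels. The deposited values are the authors' intensity of each of 45101 probe sets (linear scale). The tool is MAS5, per the submitters' processing notes, with the version not given in the sources used here. Each array had a mean, leaving out 2% of values at either end, of 500.0, so no further scaling was applied. Groups and littermate pairs came from the titles and the series' design text.

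Values were transformed to log2(signal + 16). Probe sets that were not controls were tested when their mean reached the 40th percentile (log2 6.13), which left 27022. Differences were fitted with limma 3.58.1 in R 4.3.3 (lmFit, eBayes with an intensity trend, 4 residual degrees of freedom), two-sided, and adjusted by Benjamini-Hochberg over all tested probe sets. The script was tested on simulated data. Folds are on the log2(signal + 16) scale and understate changes of dim probe sets. The number of arrays limits the precision.

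Symbols came from the platform's annotation, with 34945 probe sets of a single symbol, 932 of several and 9160 of none, checked by Entrez identifier against a RefSeq table of GRCm38.p6 (34741 matched, 0 symbols changed). Only single-symbol probe sets were used, except for Trex1, and the brightest stood for a gene.

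The members and lists were chosen with earlier results of these data known. All members are named. From each list the text names the passing genes (at most 3, the largest), or else the gene with the smallest p, and for Fcgr1 and Csf1r the 5 most correlated genes. Other genes given with values are marked as named after their values were seen.

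Littermates are stated in the design text; deviations from group means correlated at 0.151, 0.192 and 0.147 within pairs A, B and C, and between -0.161 and 0.0101 for other Trex1 KO and Trex1 WT combinations. Planned protein sequences were not used here, and a further promoter motif is not reported here. Alternatives changed the pseudocount, filter, scaling, trend, block, covariate, probe sets and arrays; leaving out whole pairs was chosen after seeing the data.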

Additional observations from a re-analysis of the deposited data

How the results depend on the processing

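The counts of 0 members higher and 0 lower were the same under all 18 alternatives in limma, including littermate pairs as a block, and the lowest adjusted p of any member was 0.174 (Fcgr1 with the block). Fcgr1 kept its direction in all 18, with log2 differences from 0.50 (mean of both probe sets) to 1.05. Of 180 single-gene values 170 kept their direction and 10 turned. With the Actb ratio as a covariate, Csf1r was 0.29 (SE 0.24) and Fcgr2b 0.38 (SE 0.35). With single arrays left out, Csf1r ran from -0.264 (without Trex1 WT C) to 0.037 (without Trex1 WT B), Fcgr2b from -0.294 (without Trex1 WT C) to 0.099 (without Trex1 WT B), Fcer1g from -0.035 (without Trex1 WT C) to 0.388 (without Trex1 WT B), and Fcgr3 from -0.125 (without Trex1 KO B) to 0.280 (without Trex1 WT B), turning also without Trex1 WT A (-0.104) and Trex1 WT C (-0.107). Fcer1g was -0.063 without both animals of pair C, and Fcgr3 -0.094 without both animals of pair A. The median over the members was 0.54 with the Actb ratio, 0.23 with a pseudocount of 64, 0.18 without both animals of pair C, and between 0.11 and 0.42 with single arrays left out. Over all probe sets, 59 were higher and 7 lower in limma. The paired fit with the replicate block gave 105 and 16, the Actb covariate 8 and 1, and a fit with no trend 24 and 4. The ranges were between 33 and 85 and between 3 and 9 with single arrays left out. Causes were not tested. The lowest Cx3cr1 signal, 79.0, was near that of the highest bacterial control, 69.8.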
